A study of Mus musculus with 6 samples.

Results

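The heat shock and DnaJ chaperone genes were taken as every gene row whose symbol began with Hspa, Hspb, Hspd, Hspe or Hsph and a digit, with Hsp90, or with Dnaja, Dnajb or Dnajc and a digit, names of pseudogenes left out. That gave 72 of 24421 gene rows, namely 14 Hsp70 and Hsp110 genes, 3 Hsp90 genes, the chaperonin pair Hspd1 and Hspe1, 8 genes named as small heat shock genes, and 4 DnaJ A, 13 DnaJ B and 28 DnaJ C genes. RNA was sequenced from mouse colon in 2 groups of 3 samples. The first was colon of mice with chronic colitis from dextran sulfate sodium (DSS), a polymer that damages the lining of the large bowel, and the second was control colon. All 6 samples were labelled C57BL/6 with 7 weeks as age, and no source used here gives the dose or duration of DSS. Levels are in FPKM, a read count per length and per library size, so they can be set side by side between genes.

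Heat shock proteins are molecular chaperones. Hsp70 binds exposed stretches of unfolded protein and releases them in a cycle of ATP hydrolysis, DnaJ proteins bring it substrates and start that hydrolysis through their J domain, and Hsp110 proteins exchange its nucleotide. Hsp90 acts later, on nearly folded clients such as kinases and steroid receptors, the Hsp60 and Hsp10 chaperonin encloses proteins inside mitochondria, and small heat shock proteins hold unfolded proteins without ATP. Some members are made at all times and others are induced by the heat shock factor Hsf1 when unfolded protein accumulates. The gut lining is known to keep several of them at a high level, and Hspb6, Hspb7, Hspb8 and Cryab are known for their place in muscle.

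Read totals are unknown. Per sample, all FPKM added up to 609544 at the least and 678076 at the most. DSS 1 lay closer to the controls than the other DSS samples did. Over the tested genes its log2 values correlated with DSS 3 at r = 0.953, with DSS 2 at r = 0.936 and with the control samples at r = 0.932 to 0.937, while DSS 2 and DSS 3 correlated with the controls at r = 0.892 to 0.909, so results are also given without DSS 1 where that changes them. Of 12348 genes that could be tested with limma, 783 passed as higher in DSS and 316 as lower at a Benjamini-Hochberg adjusted p below 0.05, which is 8.9% of all tested genes in either direction. The split moved to 519 higher and 504 lower under median-of-ratios scaling, 505 and 536 under upper-quartile scaling and 528 and 508 under quantile normalization. The median log2 fold change of all tested genes was 0.13, and -0.0024, -0.016 and -0.019 under those scalings, so every fold change below is to be read against 0.13. The labels name no animals, so the p-values rest on the spread between samples that could be technical replicates.

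Of the 72 chaperone genes, 59 had at least 1 FPKM in at least 3 samples and were tested. Transcripts of Dnajc19 and Hspa9, which work on protein import into mitochondria, and of Dnajc10, a reductase of the endoplasmic reticulum, rose in DSS colon, and no member passed the test in the lower direction. The 3 genes that rose were 5.08% of the tested members, beside 6.34% of all tested genes called higher, and the count of 0 lower stood beside 2.56% of all tested genes called lower. At an unadjusted limma p under 0.05, 9 members were higher (20.3% of all tested genes) and 4 were lower (8% of all tested genes). The DSS and control values did not overlap for 14 members that were higher in DSS (25.6% of all tested genes) and 4 that were lower (9.51% of all tested genes). Without any 1 of the controls, 1 member was called higher (Dnajc19), and without DSS 2 or DSS 3, 2 were. In bulk tissue, fewer cells of a type and less RNA per cell cannot be told apart. In each of these counts the share of members was near or below the background. The median log2 fold change of the tested members was 0.17, and 36 of 59 were above 0, beside 63.7% of all tested genes. That member median was 0.015 under median-of-ratios scaling, -0.0010 under upper-quartile scaling and 0.036 under quantile normalization.

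**Figure D1:**
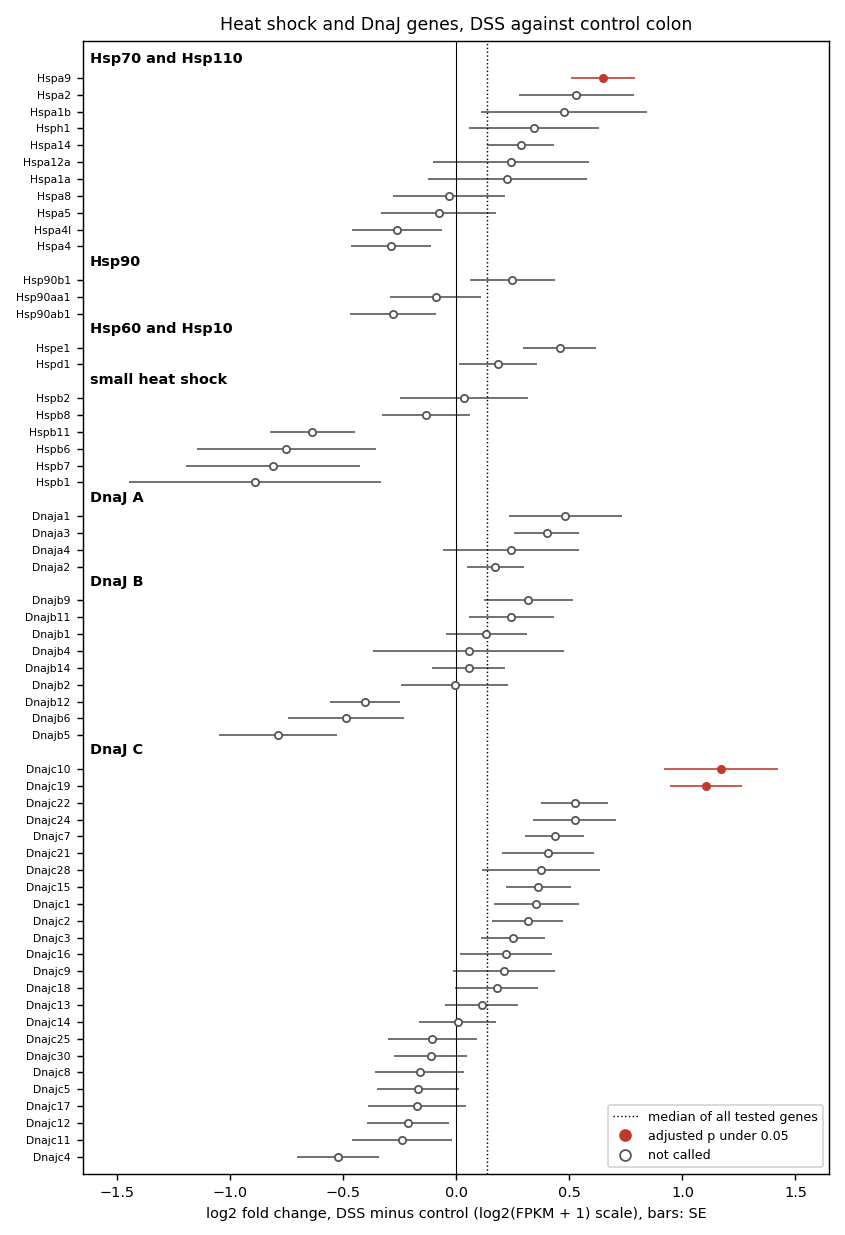
Log2 fold change (DSS minus control, log2(FPKM + 1) scale) of the 59 tested heat shock and DnaJ genes by family, with bars for the SE. Filled points mark Dnajc10, Dnajc19 and Hspa9, the genes with an adjusted p under 0.05, and the dotted line is the median of all tested genes at 0.13.

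Promoters are shown for Dnajc19 and Dnajc10, which rose, for Dnajc3, a relative in the endoplasmic reticulum, and for the heat-inducible pair Hspa1a and Hspa1b as a comparison. Each is the 250 bases before the start site that RefSeq gives on GRCm38.p6, written 5′ to 3′ toward the start. Capitals mark a heat shock element, searched as GAANNTTC or TTCNNGAA on both strands, or, in Dnajc3, an endoplasmic reticulum stress element, searched as CCAAT, any 9 bases and CCACG on both strands, which includes a CCAAT box. The windows are Dnajc19 at chr3:34081355-34081604, minus strand, Dnajc10 at chr2:80315216-80315465, plus strand, Dnajc3 at chr14:118937682-118937931, plus strand, Hspa1a at chr17:34972157-34972406, minus strand, and Hspa1b at chr17:34959239-34959488, minus strand.
Dnajc19: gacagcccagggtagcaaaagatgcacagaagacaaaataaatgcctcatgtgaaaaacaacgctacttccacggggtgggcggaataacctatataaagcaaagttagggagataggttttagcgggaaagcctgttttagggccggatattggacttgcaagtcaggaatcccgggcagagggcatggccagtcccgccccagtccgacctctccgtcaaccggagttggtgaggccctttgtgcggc
Dnajc10: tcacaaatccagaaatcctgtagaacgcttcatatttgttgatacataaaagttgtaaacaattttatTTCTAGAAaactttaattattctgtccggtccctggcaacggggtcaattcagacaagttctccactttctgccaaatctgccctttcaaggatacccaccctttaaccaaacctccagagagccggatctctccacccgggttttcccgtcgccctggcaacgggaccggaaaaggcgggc
Dnajc3: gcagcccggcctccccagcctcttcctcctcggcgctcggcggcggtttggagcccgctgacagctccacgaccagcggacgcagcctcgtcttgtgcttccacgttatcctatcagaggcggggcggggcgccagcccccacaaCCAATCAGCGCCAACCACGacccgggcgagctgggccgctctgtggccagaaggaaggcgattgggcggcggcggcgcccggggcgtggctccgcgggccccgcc
Hspa1a: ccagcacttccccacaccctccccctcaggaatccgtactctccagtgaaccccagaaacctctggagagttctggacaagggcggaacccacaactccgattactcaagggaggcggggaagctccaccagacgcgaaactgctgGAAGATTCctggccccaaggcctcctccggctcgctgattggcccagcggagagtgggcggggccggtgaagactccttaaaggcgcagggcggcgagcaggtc
Hspa1b: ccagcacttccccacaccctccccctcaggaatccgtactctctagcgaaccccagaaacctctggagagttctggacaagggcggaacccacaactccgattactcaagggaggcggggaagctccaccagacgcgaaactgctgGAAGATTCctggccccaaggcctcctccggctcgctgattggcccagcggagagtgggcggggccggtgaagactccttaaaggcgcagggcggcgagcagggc
A window was at hand for 58 of the 72 members, with 75 start sites in all. None was at hand for Hspa8, Hspa9, Hspa13, Hsp90aa1, Hsp90ab1, Hspb2, Dnajc2, Dnajc5, Dnajc5b, Dnajc11, Dnajc12, Dnajc18, Dnajc22 or Dnajc30. These were not searched, so their absence from what follows says nothing about their promoters. A heat shock element, in the searched form of 2 units, stood in 16 of these 75 windows, or 21.3%. It stood in 12.8% of 32851 promoter windows of all genes. The members with one were Dnaja1, Dnaja4, Dnajb4, Dnajb6, Dnajc10, Dnajc27, Hspa1a, Hspa1b, Hspb1, Hspb3, Hspb6, Hspd1, Hspe1 and Hsph1. The 16 windows are not 16 separate sites, since windows of Dnajb6, of Hsph1, and of Hspd1 and Hspe1 overlap and share matches. A longer form of 3 units stood in 4 of the 75 windows, or 5.33%, and in 0.466% of all windows. Only Dnajb6, Hspd1 and Hspe1 held the longer form. The Hspa1a and Hspa1b windows were identical at 247 of 250 positions. The Dnajc19 window held neither element. The endoplasmic reticulum element stood in the windows of Hspa5, Hsp90b1 and Dnajc3 and in 0.113% of all windows, and these letters were not in the Dnajc10 window. Some windows overlap annotated exons, and a match is a description of the letters, not of a bound site.

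Hspa9 encodes mortalin, the Hsp70 of the mitochondrial matrix, which pulls proteins through the inner membrane. It stood at 114, 119.8 and 139 FPKM in samples DSS 1, 2 and 3, against 72.6, 81.1 and 82.9 FPKM in control 1, 2 and 3. Every DSS sample lay above every control sample, and the means were 125 ± 13.2 FPKM for DSS against 78.9 ± 5.51 FPKM for controls (SD, n = 3 each). The gene rose (log2 fold change 0.65 with SE 0.14, adjusted p = 0.0335, limma). That call was lost under TPM, upper-quartile and median-of-ratios scaling, without the filter on low values, with the replicate number as a block (adjusted p = 0.0546) and without DSS 2, DSS 3 or any control, with adjusted p up to 0.125. Hspa9 lies on chromosome 18, 34937414 to 34954357 in GRCm38, and a near-identical pseudogene copy makes its value uncertain.

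Dnajc19 encodes the J protein of the same import motor at the inner membrane. It stood at 109.9, 97.9 and 120.4 FPKM in samples DSS 1, 2 and 3, against 52.0, 56.8 and 42.7 FPKM in control 1, 2 and 3. The lowest DSS value lay well above the highest control value, and the means were 109 ± 11.3 FPKM for DSS against 50.5 ± 7.19 FPKM for controls (SD, n = 3 each). Its rise (log2 fold change 1.10 with SE 0.16, adjusted p = 0.00854, limma) was the one call among the members that held under all 15 alternatives, with adjusted p up to 0.0478. Dnajc19 lies on chromosome 3, 34056020 to 34081321 in GRCm38, has a near-identical pseudogene copy and overlaps exons of Fxr1 on the opposite strand. The second-strand kit named in the labels is non-directional, so reads of both genes cannot be told apart there. Fxr1 itself had 23.7, 24.6 and 25.9 FPKM in the DSS samples against 18.8, 23.1 and 18.4 in the controls (log2 fold change 0.29 with SE 0.15, adjusted p = 0.238).

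The other 8 mitochondrial members did not pass the test. Hspe1, the Hsp10 lid of the chaperonin, had 167, 151 and 214 FPKM in samples DSS 1, 2 and 3, against 124, 128 and 130.1 FPKM in control 1, 2 and 3 (log2 fold change 0.46 with SE 0.16, adjusted p = 0.116). Its 3 control values lay close together and all below the DSS values. Its partner Hspd1, the Hsp60 ring, had 96.5, 75.5 and 112 FPKM in samples DSS 1, 2 and 3, against 87.5, 81.1 and 77.7 FPKM in control 1, 2 and 3 and the groups overlapped (log2 fold change 0.19 with SE 0.17, adjusted p = 0.521). The ratio of Hspe1 to Hspd1 was 1.73, 2.00 and 1.91 in DSS 1, 2 and 3 and 1.42, 1.58 and 1.67 in control 1, 2 and 3, so each DSS sample had more Hspe1 per Hspd1 than each control sample. The genes lie head to head and overlap on chromosome 1, so without strand their reads cannot be told apart in the shared exons. A run of 18 bases holds 3 overlapping matches to the heat shock element letters, which share bases. The windows of Hspe1 and Hspd1 that hold it lie wholly in annotated exons (250 of 250 bases), and another Hspd1 window holds no match. The run is printed because it falls in windows of both genes (chr1:55088059-55088076, plus strand, beginning 89 bases before the Hspe1 start, all of it in capitals).
Hspe1 and Hspd1: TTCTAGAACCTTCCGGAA
Dnaja3, a J protein of the mitochondrial matrix, had 22.1, 22.2 and 25.3 FPKM in the DSS samples against 15.7, 17.6 and 18.8 in the controls (log2 fold change 0.40 with SE 0.14, adjusted p = 0.123). Dnajc15, a relative of Dnajc19 at the inner membrane, had 76.6, 96.9 and 91.3 FPKM in the DSS samples against 67.1, 72.7 and 64.7 in the controls (log2 fold change 0.36 with SE 0.14, adjusted p = 0.152). In both, the DSS values lay above the control values. Dnajc11 and Dnajc30, further mitochondrial J proteins, overlapped between the groups (log2 fold changes -0.24 and -0.11). Dnajc28 was apart by a narrow margin, with control 1 far below the other controls, at 3.22, 2.70 and 2.71 FPKM in the DSS samples against 1.003, 2.58 and 2.70 in the controls (log2 fold change 0.37 with SE 0.26, adjusted p = 0.387). Dnajc4, placed with the mitochondrial members though its location is not certain, lay the other way, with every DSS sample below every control, at 26.6, 19.3 and 18.0 FPKM in the DSS samples against 28.1, 30.9 and 33.0 in the controls (log2 fold change -0.52 with SE 0.18, adjusted p = 0.113). It passed without DSS 1 (-0.69, adjusted p = 0.0364, limma). Of these 10 mitochondrial members 2 rose, beside 6.34% of all tested genes. The groups were apart with DSS higher in 6, beside 25.6% of all tested genes, and with DSS lower in 1, beside 9.51%. Their summed level was 644, 605 and 749 FPKM in samples DSS 1, 2 and 3, against 474, 499 and 482 FPKM in control 1, 2 and 3, with no overlap.

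Partners of the mitochondrial chaperones gave no call among 14 tested, with 6 higher at an unadjusted limma p under 0.05 (20.3% of all tested genes) and a median log2 fold change of 0.28. Pam16, which holds Dnajc19 at the import channel, had 81.4, 119 and 91.4 FPKM in the DSS samples against 60.0, 73.0 and 68.7 in the controls (log2 fold change 0.51 with SE 0.18, adjusted p = 0.114). Timm44, which tethers mortalin to the channel, had 33.8, 46.4 and 48.1 FPKM in the DSS samples against 26.6, 37.4 and 30.4 in the controls and overlapped (log2 fold change 0.43 with SE 0.20, adjusted p = 0.203). Grpel1, the nucleotide exchange factor of mortalin, lay the other way, at 25.6, 25.2 and 25.1 FPKM in the DSS samples against 26.0, 31.5 and 28.3 in the controls (log2 fold change -0.17 with SE 0.14, adjusted p = 0.466). Its relative Grpel2 had 17.1, 29.6 and 24.7 FPKM in the DSS samples against 11.8, 13.5 and 14.8 in the controls (log2 fold change 0.76 with SE 0.22, adjusted p = 0.0709). Trap1, the mitochondrial Hsp90, had 47.4, 32.2 and 39.8 FPKM in the DSS samples against 39.5, 47.5 and 40.3 in the controls and overlapped (log2 fold change -0.10 with SE 0.18, adjusted p = 0.748). Tomm70a, the partner with the smallest p, had 36.5, 38.3 and 40.1 FPKM in the DSS samples against 28.5, 28.3 and 24.8 in the controls (log2 fold change 0.48 with SE 0.13, adjusted p = 0.0676). All DSS values lay above all control values for Clpx, Grpel2, Htra2, Pam16, Tomm20, Tomm22 and Tomm70a (25.6% of all tested genes). They lay below all control values for Clpb and Grpel1 (9.51% of all tested genes).

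**Figure D2:**
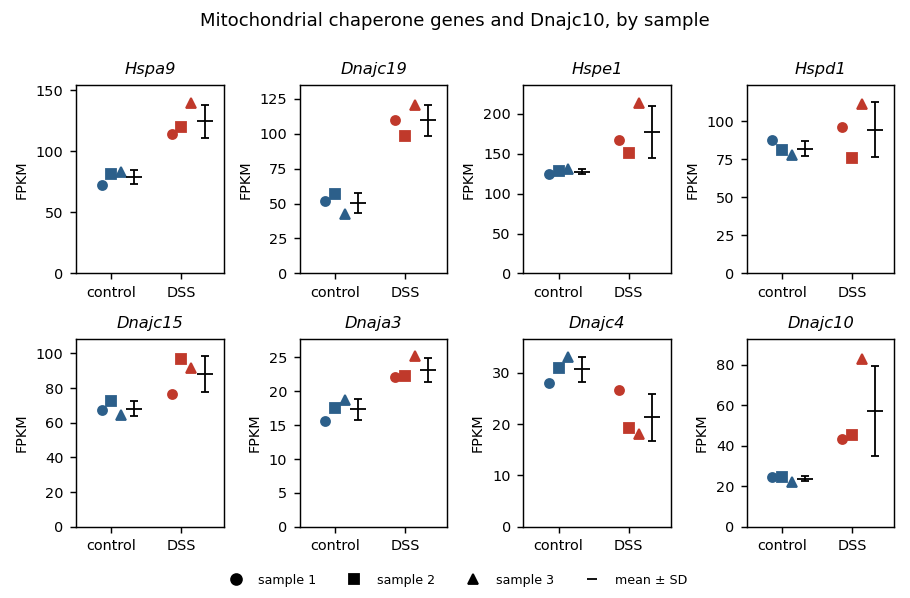
FPKM of 7 mitochondrial chaperone genes (Hspa9, Dnajc19, Hspe1, Hspd1, Dnajc15, Dnaja3 and Dnajc4) and Dnajc10 in each control and DSS sample (axes from 0), with the mean ± SD of 3 beside the points. DSS points lie above all control points for Hspa9, Dnajc19, Hspe1, Dnajc15, Dnaja3 and Dnajc10, overlap for Hspd1 and lie below for Dnajc4.

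Dnajc10 encodes ERdj5, which reduces disulfides of misfolded proteins in the endoplasmic reticulum and works with the Hsp70 there. It stood at 43.6, 45.5 and 83.1 FPKM in samples DSS 1, 2 and 3, against 24.4, 24.7 and 22.4 FPKM in control 1, 2 and 3. DSS 3 was the highest, and all 3 DSS values lay above the tightly grouped control values. The means were 57.4 ± 22.3 FPKM for DSS against 23.8 ± 1.27 FPKM for controls (SD, n = 3 each), and the gene rose (log2 fold change 1.17 with SE 0.25, adjusted p = 0.0315, limma). The call was lost without the filter on low values (adjusted p = 0.0631), with the replicate number as a block (adjusted p = 0.0502) and without any 1 of the controls, with adjusted p up to 0.119. Dnajc10 lies on chromosome 2, 80315466 to 80354043 in GRCm38.

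Hspa5 (BiP), the main chaperone of the endoplasmic reticulum, had 387, 345 and 505 FPKM in samples DSS 1, 2 and 3, against 618, 362 and 354 FPKM in control 1, 2 and 3 (log2 fold change -0.08 with SE 0.25, adjusted p = 0.871). Its highest value was that of control 1, and the other controls lay among the DSS values. The ratio of Dnajc10 to Hspa5 was 0.113, 0.132 and 0.165 in DSS 1, 2 and 3 and 0.0395, 0.0683 and 0.0633 in control 1, 2 and 3, with every DSS ratio above every control ratio. Hsp90b1, the Hsp90 of the same compartment, had 421, 285 and 381 FPKM in the DSS samples against 348, 289 and 271 in the controls (log2 fold change 0.25 with SE 0.19, adjusted p = 0.424). DSS 1 was its highest sample and DSS 2 lay at the level of the controls.

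Other J proteins of the endoplasmic reticulum were not called. Dnajb9, which binds BiP at the stress sensor Ire1, had 52.6, 67.5 and 59.4 FPKM in the DSS samples against 50.8, 57.2 and 36.9 in the controls (log2 fold change 0.32 with SE 0.20, adjusted p = 0.327). Dnajb11, a soluble partner of BiP, had 63.8, 55.2 and 81.9 FPKM in the DSS samples against 62.8, 48.4 and 56.8 in the controls (log2 fold change 0.24 with SE 0.19, adjusted p = 0.433). Dnajc3, known as p58IPK, had 34.9, 33.6 and 40.2 FPKM in the DSS samples against 31.8, 31.3 and 27.6 in the controls, with the groups apart but a small difference (log2 fold change 0.25 with SE 0.14, adjusted p = 0.29). Dnajb12, a J protein of the membrane, lay the other way, at 6.46, 4.97 and 5.97 FPKM in the DSS samples against 7.997, 7.80 and 8.12 in the controls (log2 fold change -0.40 with SE 0.16, adjusted p = 0.141), and passed under quantile normalization (adjusted p = 0.0461). Dnajc22, a membrane J protein, had 32.6, 38.9 and 32.7 FPKM in the DSS samples against 21.6, 24.3 and 25.6 in the controls and the lowest adjusted p among members not called (log2 fold change 0.52 with SE 0.15, adjusted p = 0.0678). Its DSS values lay above all control values. Of 14 tested members placed in the endoplasmic reticulum 1 rose, beside 6.34% of all tested genes. The groups were apart with DSS higher in 3, beside 25.6% of all tested genes, and with DSS lower in 1, beside 9.51%. The summed level of this compartment overlapped between the groups, at 1091, 920.3 and 1240.4 FPKM in samples DSS 1, 2 and 3, against 1214, 901 and 851 FPKM in control 1, 2 and 3.

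Among 20 tested partner genes of that compartment 1 rose, beside 6.34% of all tested genes, and none fell. At an unadjusted limma p under 0.05, 5 were higher, beside 20.3% of all tested genes, and 0 lower, with a median log2 fold change of 0.26. The one that rose was Sec61b, a subunit of the channel through which proteins enter, at 560.2, 488 and 576 FPKM in the DSS samples against 278, 268 and 317 in the controls (log2 fold change 0.91 with SE 0.14, adjusted p = 0.0106). That call was lost without DSS 3 or control 2 (adjusted p up to 0.068). Sec61b has 3 near-identical copies, so its value is uncertain. Pdia3 had 413, 415 and 509 FPKM in the DSS samples against 312, 323 and 312 in the controls (log2 fold change 0.49 with SE 0.14, adjusted p = 0.0696). Herpud1 had 122, 111 and 125 FPKM in the DSS samples against 86.9, 96.7 and 88.6 in the controls (log2 fold change 0.39 with SE 0.13, adjusted p = 0.104). For both, all DSS values lay above all control values. Hyou1, a large Hsp70 relative that exchanges nucleotide on BiP, had 18.6, 14.6 and 29.5 FPKM in the DSS samples against 20.1, 14.2 and 16.9 in the controls and overlapped (log2 fold change 0.23 with SE 0.26, adjusted p = 0.609). Markers of B cells and plasma cells, which are rich in these chaperones, were not called either (0 of 10 tested, and 0 at an unadjusted p under 0.05). Their summed level spanned 207 to 2786 FPKM over the DSS samples against 616 to 868 over the controls, highest in DSS 1 and lowest in DSS 3, none of the 10 was at 0 throughout, and their part in the levels was not tested.

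Hspa13, a further Hsp70 of the endoplasmic reticulum, was not tested, since only control 1 and control 2 were above 1 FPKM. It had 0.968, 0.698 and 0.789 FPKM in samples DSS 1, 2 and 3, against 7.19, 8.36 and 0.532 FPKM in control 1, 2 and 3. Control 1 and control 2 stood far above the other 4 samples, and control 3 was the lowest of all, so the groups overlapped.

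The genes best known for induction by heat gave no call. Hspa1a and Hspa1b encode the inducible cytosolic Hsp70 and are near-identical copies, so their values are uncertain. Hspa1a had 11.1, 26.4 and 28.5 FPKM in samples DSS 1, 2 and 3, against 19.5, 19.2 and 13.8 FPKM in control 1, 2 and 3 (log2 fold change 0.23 with SE 0.35, adjusted p = 0.714). Hspa1b had 25.0, 60.9 and 61.8 FPKM in samples DSS 1, 2 and 3, against 39.1, 35.6 and 24.7 FPKM in control 1, 2 and 3 (log2 fold change 0.47 with SE 0.37, adjusted p = 0.436). In both, DSS 2 and DSS 3 lay above all controls, and DSS 1 lay below the lowest control for Hspa1a and level with it for Hspa1b. Without DSS 1, Hspa1b passed (0.90, adjusted p = 0.0389, limma), and Hspa1a did not (adjusted p = 0.0816). The ratio of Hspa1b to Hspa1a was 2.25, 2.31 and 2.16 in DSS 1, 2 and 3 and 2.01, 1.85 and 1.79 in control 1, 2 and 3, higher in each DSS sample than in each control.

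Hsph1, the inducible Hsp110, had 19.4, 26.6 and 45.2 FPKM in the DSS samples against 24.0, 23.6 and 19.8 in the controls (log2 fold change 0.34 with SE 0.29, adjusted p = 0.474), with DSS 3 far above the rest and DSS 1 the lowest of all. Dnaja1, a J protein of the cytosolic Hsp70 with 3 near-identical copies, had 44.9, 72.8 and 73.0 FPKM in the DSS samples against 57.0, 42.5 and 35.4 in the controls (log2 fold change 0.48 with SE 0.25, adjusted p = 0.252). DSS 1 was the lowest and DSS 3 the highest of the DSS samples in all 4 of Hspa1a, Hspa1b, Dnaja1 and Hsph1, which were set together after their values were seen. Over the 59 tested members DSS 1 was the lowest DSS sample in 28.8% (30.8% of all tested genes) and DSS 3 the highest in 50.8% (37.5% of all tested genes). Other tested members with a heat shock element in a window were mixed. DSS 2 was the lowest DSS sample in Hspb1, Hspb6, Hspd1, Hspe1 and Dnajb4, DSS 1 in Dnaja4 and Dnajc10, and DSS 3 in Dnajb6. Dnajb1, the Hsp40 usually induced with Hspa1a and Hspa1b, had 29.2, 36.4 and 27.2 FPKM in the DSS samples against 33.5, 24.6 and 26.4 in the controls (log2 fold change 0.13 with SE 0.18, adjusted p = 0.668), with DSS 3 the lowest of its group instead, and its sign turned under 3 of the scalings.

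**Figure D3:**
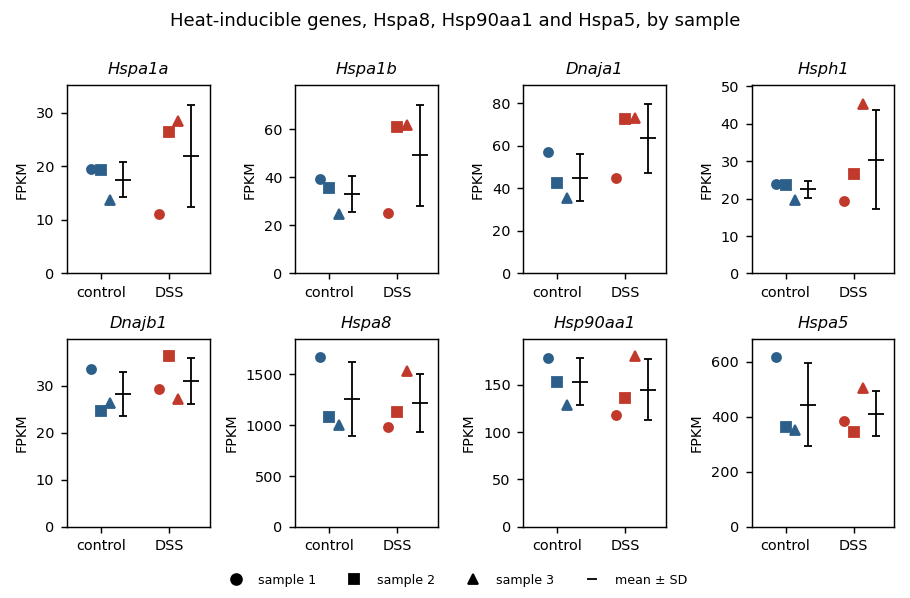
FPKM of Hspa1a, Hspa1b, Dnaja1, Hsph1, Dnajb1, Hspa8, Hsp90aa1 and Hspa5 in each control and DSS sample (axes from 0), with the mean ± SD of 3. DSS 1 is the lowest DSS point in the first 4 panels, and the groups overlap in all 8.

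Factors and helpers of that response did not stand out. Hsf1 had 7.96, 5.56 and 8.04 FPKM in the DSS samples against 6.67, 8.36 and 8.39 in the controls (log2 fold change -0.11 with SE 0.19, adjusted p = 0.735), and none of 4 tested genes of heat shock factors and their regulators was called (0 at an unadjusted limma p under 0.05). Bag3, an inducible partner of Hsp70 and small heat shock proteins, had 20.8, 18.5 and 31.0 FPKM in the DSS samples against 21.2, 15.3 and 17.5 in the controls (log2 fold change 0.34 with SE 0.22, adjusted p = 0.362). Stip1, which links Hsp70 to Hsp90, had 48.1, 44.3 and 56.9 FPKM in the DSS samples against 53.1, 55.3 and 52.1 in the controls (log2 fold change -0.11 with SE 0.14, adjusted p = 0.658). Of 30 tested co-chaperone genes 2 rose, beside 6.34% of all tested genes, and none fell, with a median log2 fold change of 0.07. They were Fkbp5, an Hsp90 partner in steroid receptor complexes that glucocorticoids induce, and Ptges3, the Hsp90 partner p23. Fkbp5 had 55.3, 101 and 71.1 FPKM in the DSS samples against 26.9, 25.8 and 28.3 in the controls (log2 fold change 1.41 with SE 0.22, adjusted p = 0.0112), and lost the call without control 2 or control 3 (adjusted p up to 0.0641). Ptges3 had 79.1, 101 and 116 FPKM in the DSS samples against 49.7, 58.0 and 54.7 in the controls (log2 fold change 0.84 with SE 0.17, adjusted p = 0.0292), and lost it in 8 alternatives, among them those without any 1 of the controls (adjusted p up to 0.111). Ptges3 has a near-identical pseudogene copy, so its value is uncertain. None of 16 tested genes of the TRiC chaperonin and prefoldin, which fold actin and tubulin, was called (0 at an unadjusted p under 0.05, median log2 fold change 0.01).

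Hspa8, the constitutive cytosolic Hsp70, was the most abundant member in every sample, and its groups overlapped. It had 983, 1132 and 1535 FPKM in samples DSS 1, 2 and 3, against 1675, 1085 and 1006 FPKM in control 1, 2 and 3 (log2 fold change -0.03 with SE 0.25, adjusted p = 0.945), with control 1 and DSS 3 high and the other 4 samples close together. It has 9 near-identical copies among annotated transcripts, so its values are uncertain. Hspa8 alone held between 24.8% and 35.2% of the summed FPKM of all 72 members. With Hspa5, Hsp90b1 and Hsp90ab1 the share lay between 51.4% and 60.9%. The members together held between 0.551% and 0.783% of all FPKM, highest in DSS 3 and control 1, so the chaperone pool as a whole did not separate the groups.

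**Figure D4:**
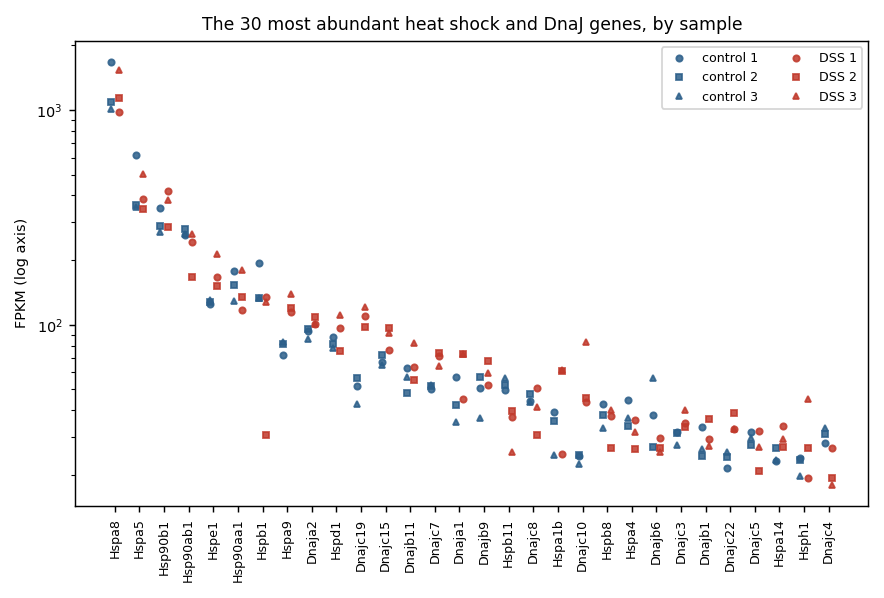
FPKM on a log axis of the 30 most abundant heat shock and DnaJ genes in each sample, ordered by their mean over the 6 samples. Hspa8 stands highest in every sample, DSS 2 lies far below the other samples for Hspb1, and the DSS points lie above the control points for Hspa9 and Dnajc19.

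The cytosolic Hsp90 genes followed. Hsp90ab1, the constitutive form, had 242, 166 and 266 FPKM in the DSS samples against 260.4, 279 and 264 in the controls (log2 fold change -0.28 with SE 0.19, adjusted p = 0.378), with DSS 2 below the other samples. Hsp90aa1, the inducible form, had 118, 135 and 180.4 FPKM in the DSS samples against 178, 153 and 129 in the controls (log2 fold change -0.09 with SE 0.20, adjusted p = 0.803), with DSS 3 and control 1 highest. The ratio of Hsp90ab1 to Hsp90aa1 was 2.06, 1.23 and 1.47 in DSS 1, 2 and 3 and 1.47, 1.83 and 2.06 in control 1, 2 and 3, and the groups overlapped. Hsp90aa1 also has 3 near-identical copies.

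The remaining Hsp70 and Hsp110 members were not called. Hspa2, best known from the testis, had 7.58, 3.68 and 5.33 FPKM in the DSS samples against 2.82, 4.18 and 3.26 in the controls (log2 fold change 0.53 with SE 0.25, adjusted p = 0.218). Hspa14, which acts at the ribosome, had 33.9, 27.0 and 29.5 FPKM in the DSS samples against 23.3, 26.7 and 23.4 in the controls and its groups were apart (log2 fold change 0.29 with SE 0.15, adjusted p = 0.251). The Hsp110 genes Hspa4 and Hspa4l had log2 fold changes of -0.29 and -0.26, and both overlapped.

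Of 6 tested small heat shock genes none was called, beside 6.34% of all tested genes called higher and 2.56% called lower. A log2 fold change below 0 was seen in 5, while 63.7% of all tested genes were above 0. Without Hspb11, 4 of 5 were below 0. Hspb1 (Hsp25), which binds actin and protects epithelium, had 134, 30.7 and 128 FPKM in samples DSS 1, 2 and 3, against 194, 134 and 133 FPKM in control 1, 2 and 3 (log2 fold change -0.89 with SE 0.56, adjusted p = 0.341). DSS 2 lay far below every other sample, while DSS 1 and DSS 3 lay near control 2 and control 3. Hspb6, known from smooth muscle, had 6.15, 3.46 and 13.4 FPKM in the DSS samples against 13.4, 12.3 and 10.5 in the controls (log2 fold change -0.75 with SE 0.40, adjusted p = 0.259). Hspb7, known from heart and muscle, had 8.32, 3.34 and 10.9 FPKM in the DSS samples against 17.4, 11.2 and 10.6 in the controls (log2 fold change -0.81 with SE 0.38, adjusted p = 0.217). DSS 2 was again the lowest sample in both, and DSS 3 lay among the controls. Hspb8, the partner of Bag3, had 37.5, 26.7 and 40.2 FPKM in the DSS samples against 42.8, 38.1 and 33.0 in the controls (log2 fold change -0.14 with SE 0.19, adjusted p = 0.691), and Hspb2, a binding partner of the myotonic dystrophy kinase, had 5.77, 6.92 and 12.1 FPKM in the DSS samples against 5.84, 7.99 and 9.61 in the controls (log2 fold change 0.03 with SE 0.28, adjusted p = 0.949). The summed level of the 7 small heat shock genes without Hspb11 was 192, 71.2 and 204 FPKM in samples DSS 1, 2 and 3, against 273, 204 and 197 FPKM in control 1, 2 and 3, with overlap.

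Cryab, the alpha-B crystallin, belongs to the same protein family and lies head to head with Hspb2 on chromosome 9. It had 14.1, 9.60 and 16.6 FPKM in samples DSS 1, 2 and 3, against 27.3, 31.4 and 29.2 FPKM in control 1, 2 and 3. All DSS values lay below all control values, and the gene fell (log2 fold change -1.10 with SE 0.21, adjusted p = 0.0209, limma), a call lost without any 1 of the controls (adjusted p up to 0.0953). Its exons overlap those of Hspb2 on the opposite strand, while the groups overlapped for Hspb2. Smooth muscle markers lay lower in DSS too. Of 13 tested markers 1 was called, lower (Tpm2), 8 were lower at an unadjusted limma p under 0.05 (8% of all tested genes), and the median log2 fold change was -1.01. The markers summed to 1506 to 4156 FPKM over the DSS samples against 4421 to 5518 over the controls, lowest in DSS 2 and highest of the DSS samples in DSS 3, with no marker at 0 throughout. Their part in the levels of Hspb6, Hspb7 and Cryab was not tested.

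**Figure D5:**
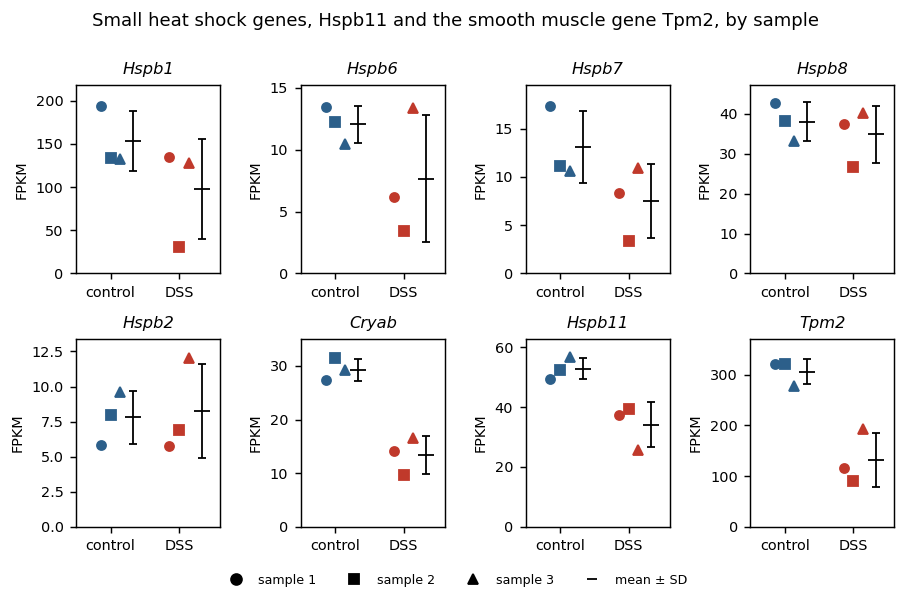
FPKM of 5 small heat shock genes, Cryab, Hspb11 and the smooth muscle gene Tpm2 in each control and DSS sample (axes from 0), with the mean ± SD of 3. DSS 2 is the lowest sample for Hspb1, Hspb6, Hspb7, Hspb8, Cryab and Tpm2, and all DSS points lie below the control points for Cryab, Hspb11 and Tpm2.

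Hspb11 carries the name of a small heat shock gene but encodes Ift25, a part of the transport system of cilia. It had 37.3, 39.5 and 25.7 FPKM in samples DSS 1, 2 and 3, against 49.5, 52.4 and 56.7 FPKM in control 1, 2 and 3. The groups were apart with DSS lower, and the gene was not called (log2 fold change -0.64 with SE 0.19, adjusted p = 0.0789).

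Among the cytosolic J proteins, Dnajc7, which also binds Hsp90, had 71.9, 74.3 and 64.1 FPKM in the DSS samples against 50.3, 51.9 and 52.2 in the controls (log2 fold change 0.44 with SE 0.13, adjusted p = 0.0801), with the groups apart. Dnajc24, which serves the diphthamide pathway, had 13.5, 16.2 and 15.7 FPKM in the DSS samples against 12.1, 10.9 and 8.02 in the controls (log2 fold change 0.52 with SE 0.18, adjusted p = 0.118). Dnajc2, a J protein at the ribosome, had 26.2, 22.8 and 25.1 FPKM in the DSS samples against 21.0, 21.6 and 16.6 in the controls (log2 fold change 0.31 with SE 0.16, adjusted p = 0.231). In these 3 genes every DSS sample lay above every control sample. Dnajc21, of ribosome assembly, overlapped (log2 fold change 0.41).

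On the lower side, Dnajb5 had 6.18, 3.62 and 7.43 FPKM in the DSS samples against 13.0, 8.77 and 9.59 in the controls (log2 fold change -0.79 with SE 0.26, adjusted p = 0.103), with the groups apart. Dnajb6, which keeps polyglutamine proteins and keratins soluble, had 29.7, 26.7 and 25.7 FPKM in the DSS samples against 38.0, 26.8 and 56.5 in the controls (log2 fold change -0.49 with SE 0.26, adjusted p = 0.258), with control 2 among the DSS samples and control 3 far above the rest. Dnajb4, a close relative of Dnajb1, had 14.0, 4.09 and 14.9 FPKM in the DSS samples against 9.82, 9.10 and 8.89 in the controls (log2 fold change 0.06 with SE 0.42, adjusted p = 0.945), with DSS 2 far below and the other DSS samples above all controls. Dnaja2, the J protein of highest mean level over the 6 samples, had 101, 109 and 101 FPKM in the DSS samples against 93.3, 96.0 and 85.7 in the controls, apart but with a small difference (log2 fold change 0.17 with SE 0.13, adjusted p = 0.411). Dnaja4 had 2.74, 4.75 and 7.69 FPKM in the DSS samples against 3.39, 4.01 and 4.13 in the controls (log2 fold change 0.24 with SE 0.30, adjusted p = 0.637), again with DSS 1 the lowest and DSS 3 the highest of all samples. Dnajc5, the cysteine string protein of secretory vesicles, had 32.0, 20.9 and 26.9 FPKM in the DSS samples against 31.6, 27.6 and 29.9 in the controls and overlapped (log2 fold change -0.17 with SE 0.18, adjusted p = 0.578).

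By family, none of 4 tested DnaJ A genes and none of 9 tested DnaJ B genes was called, and 2 of 24 tested DnaJ C genes rose, beside 6.34% of all tested genes. The summed DnaJ C level was 654, 608 and 693 FPKM in samples DSS 1, 2 and 3, against 496, 525 and 493 FPKM in control 1, 2 and 3, with no overlap between the groups. The 13 members below the level for testing were Hspa13, the 3 genes Dnajb8, Dnajc5g and Hspb3, listed at 0 in every sample, and 9 others that reached at most 1.22 FPKM in any sample. A listed 0 can be a failed estimate: Gapdh, a glycolytic gene that every cell uses, was listed at 0, 21.4 and 36.1 FPKM in the DSS samples, against 2.00, 0.117 and 0.145 FPKM in the controls.

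The DSS samples differed from each other more than the controls did. In DSS, 13 of the 59 tested members differed at least 2-fold between the lowest and highest sample (22%, beside 23% of all tested genes), and in control colon 3 did (5.08%, beside 11.7% of all tested genes). DSS 2 was the lowest DSS sample in 34 of 59 members (57.6%, beside 49.9% of all tested genes), and DSS 3 the highest in 30 (50.8%, beside 37.5%). Control 1 was the highest control in 25 (42.4%, beside 25.7%), and control 3 the lowest in 28 (47.5%, beside 25.6%). Some markers of other cells differed between the groups. All 10 tested neutrophil markers rose, with summed levels of 4124 to 7019 FPKM over the DSS samples against 8.11 to 31.9 over the controls. Of 12 epithelial markers 2 fell (Krt8 and Krt19), with summed levels of 9419 to 10367 FPKM over the DSS samples against 13115 to 17173 over the controls. Their median log2 fold change was -0.34, but the list was mixed. Fabp2 (1.81) and Cdx2 (1.48) lay furthest the other way, with overlap between the groups and no call. Among macrophage, T cell, endothelial and adipocyte markers 1 of 10, 2 of 4, 1 of 9 and 2 of 6 tested rose, and 3 adipocyte markers fell. Fibroblast, enteric neuron and glia, and skeletal muscle markers gave no call, with Myh1 and Myh4 of the last at 0 in every sample. These marker counts stand beside 6.34% of all tested genes called higher and 2.56% called lower. No neutrophil or epithelial marker was at 0 throughout, and their part in the levels of Hspa9, Dnajc19 and Dnajc10 was not tested.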

How the data were processed

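Total RNA of 6 mouse colon samples was extracted with TRIZOL and sequenced, and kits for poly(A) selection and for non-directional libraries are listed, per the labels' protocols. The authors deposited 1 FPKM value for each gene and sample. The submitters' processing notes name TopHat2 2.1.1 and mm10. What program and annotation gave the FPKM is not given in the sources used here. Sample titles set the groups and replicate numbers.

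The fit used log2(FPKM + 1) on group, with no further scaling, for genes that reached 1 FPKM in 3 or more samples. It was made with limma 3.58.1 under R 4.3.3, moderated with trend and robust options, two-sided, with Benjamini-Hochberg adjustment over all 12348 genes and a threshold of 0.05. Fold changes on this scale understate the change of low genes. Whole reads could not be recovered from low values, where a ratio bin 0.02 wide on the log2 scale held at most 1.38% of genes. Depth is therefore unknown, and no counting interval is given.

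The members, gene lists and comparisons were chosen with earlier results of these data known. Genes were named by rule: called members, the 3 most abundant and the 3 most changed of each family, and a fixed list, with 34 members in all. Dnajc22, Dnajc24, Dnajc2, Dnajc28, Hspa14, Hspa4, Hspa4l, Dnajc21, Dnajc11, Dnajc30, Dnajb4, Hspb2, Hspa13, the ratios and the pooling of role groups by compartment were chosen after values were seen. The partners Timm44 and Grpel1 were also named outside the rule. Lists are described by counts and medians only.

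Coordinates are from GENCODE vM21 (GRCm38), which held all 72 members, and promoters from RefSeq (GRCm38.p6). Near-identical copies (BLAST+ 2.17.0, at least 95% identity over at least 200 bases, overlapping genes left out) were found for 16 of 59 tested members, and 21 overlapped an exon on the opposite strand. Besides members flagged above, those with copies include Dnajb6, Hspb1, Hspd1, Hspe1 and Hspb11. Python 3.11.15 with matplotlib 3.10.9 drew the figures.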

Additional observations from a re-analysis of the deposited data

How the results depend on the processing

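The number of genes called was 1099, and 250 to 1556 when 1 sample was left out, with 337 without DSS 3 and 422, 250 and 276 without control 1, 2 and 3. The number of members called higher was 3, and 1 without the filter on low values or with the replicate number as a block, and 1 to 4 when 1 sample was left out. The number called lower was 0, 1 under quantile normalization, and 0 to 1 when 1 sample was left out. The block called 895 genes. The numbers were not taken to pair the samples: deviations of same-numbered samples correlated at 0.082, 0.13 and 0.0031. The same number was the best match for DSS 1 and DSS 2, while DSS 3 correlated best with control 1 (0.034). A pairing thus remains possible, and the calls of Hspa9 and Dnajc10 were lost under the block. Depth is unknown and its limit cannot be given.

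Signs were followed for a part of the members and context genes only, so other members near 0 can also have turned. Of the genes followed, those that changed sign were all uncalled. Under upper-quartile scaling Dnaja2 was at -0.0010, Dnajb1 at -0.037, Dnajb4 at -0.11 and Hspb2 at -0.12. Under median-of-ratios scaling Dnajb1 was at -0.021, Dnajb4 at -0.093 and Hspb2 at -0.11. Under quantile normalization Dnajb1 was at -0.0094, Dnajb4 at -0.11, Hspb2 at -0.14 and Hspa8 at 0.087. Scaled to TPM, Dnajb4 was at -0.0014 and Hspb2 at -0.015. With 1 sample left out, the log2 fold changes ranged as follows: Dnaja4 -0.059 to 0.55, Dnajb4 -0.23 to 0.59, Hsp90aa1 -0.26 to 0.043, Hspa1a -0.0066 to 0.64, Hspa5 -0.23 to 0.18, Hspa8 -0.21 to 0.19, Hspb2 -0.24 to 0.23, Hspb8 -0.25 to 0.039, Hsf1 -0.21 to 0.038, Trap1 -0.23 to 0.037, Hyou1 -0.038 to 0.45.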
